A study of Mus musculus with 58 samples.

Results

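The mice described here were the 14 injured APOE3 mice of a series of 58 mice, taken by their labels: 6 mice with 1 functional copy of Abca1 (E3/Abca1+/- TBI) and 8 mice with 2 copies (E3/Abca1+/+ TBI). RNA of injured hippocampus and cortex was sequenced from each animal, and the table held read counts of 15171 genes. All 14 mice carried human APOE3 at the place of mouse Apoe on a C57BL/6 background, were 3 months old and received a controlled cortical impact over the left parietal cortex (traumatic brain injury, TBI), with tissue taken 14 days later. The E3/Abca1+/- group held 3 males and 3 females and the E3/Abca1+/+ group 4 males and 4 females. The Abca1 allele was lost in the germline, so every cell type carried the reduced dose. The human APOE transcript was not analysed here, since the table lists mouse genes. The comparison asked what a missing copy of Abca1 did to the transcriptome of the injured APOE3 brain. It was set beside the same comparison in 7 and 8 sham APOE3 mice, in 8 and 7 injured APOE4 mice, and in 7 and 7 sham APOE4 mice, none of which shared an animal with it.

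ABCA1 is an ATP-binding cassette transporter that moves cholesterol and phospholipid from cells onto apolipoproteins. In brain the main acceptor is APOE, which astrocytes and microglia secrete, and the lipidation of APOE particles depends on ABCA1. Transcription of Abca1, Abcg1, Srebf1 and Mylip is driven by the liver X receptors LXRα (Nr1h3) and LXRβ (Nr1h2) as heterodimers with retinoid X receptors. After a contusion, microglia and macrophages take up lipid of dying cells and myelin, and Abca1 is among the genes through which they release it.

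Library depth moved with Abca1 copies. The E3/Abca1+/- libraries held 12165681 to 21199410 counts, and the E3/Abca1+/+ libraries 4719044 to 17148953. The mean of log2 total counts was 1.10 higher with 1 copy than with 2 (p = 0.00533 by a two-sided exact permutation test), and 5 of the 6 E3/Abca1+/- libraries were deeper than every E3/Abca1+/+ library. The Rn45s row, the precursor of ribosomal RNA, held 21027 to 55179 CPM (counts scaled to TMM-adjusted library size, separately in each set of mice) in 4 E3/Abca1+/- libraries, 1306 and 1729 CPM in the other two, and 685 to 9159 CPM in E3/Abca1+/+ libraries. Markers of excitatory neurons (5377 to 7686 CPM summed over 8 genes) and of hippocampus (394 to 578 CPM over 11 genes) were present in every library, and Xist and the Y-linked gene Ddx3y matched the labelled sex in all 14 mice. Abca1 dose and depth cannot be told apart by the design, and the count of called genes is therefore also given against the 3 deepest E3/Abca1+/+ libraries (replicates 1, 4 and 6, with at least 11981479 counts).

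Abca1 was lower in mice with 1 copy, with groups that overlapped and an adjusted p that missed the threshold. Abca1 (chr4:53030789-53159988, build GRCm38) had 77.4, 105 and 136 CPM as lowest, median and highest value in E3/Abca1+/- mice. The corresponding values were 124, 148 and 282 CPM in E3/Abca1+/+ mice. The 2 highest E3/Abca1+/+ values, 218 and 282 CPM, belonged to females, and 5 of the 6 E3/Abca1+/- mice lay below every E3/Abca1+/+ mouse. The means were 105 ± 20.6 CPM (SD, n = 6) and 171 ± 53.8 CPM (n = 8). The log2 fold change was -0.71 (standard error 0.17), or 0.61 times the level with 2 copies (unadjusted p = 0.000679, adjusted p = 0.117, edgeR's quasi-likelihood test with Benjamini-Hochberg adjustment over 14966 genes). The estimate was -0.71 in males alone and -0.71 in females alone, and -0.52 (adjusted p = 0.396, edgeR) against the deeper E3/Abca1+/+ libraries. It passed the threshold with sex as a covariate (adjusted p = 0.0381, edgeR), with edgeR's exact test (adjusted p = 0.0166) and with DESeq2's Wald test (adjusted p = 0.0326). It did not pass with log2 total count as a covariate (-0.65, adjusted p = 0.774, edgeR). Nor did it without the E3/Abca1+/- libraries of high Rn45s (-1.03, adjusted p = 0.955, edgeR). With each library's trend on GC content and transcript length taken out it was -0.70 (adjusted p = 0.380, edgeR).

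In the other sets of mice the log2 fold change of Abca1 was -0.44 in sham APOE3 (adjusted p = 0.00943), -0.35 in sham APOE4 (adjusted p = 0.0800) and -0.19 in injured APOE4 mice (adjusted p = 0.718, all edgeR). The differences between these estimates did not pass a test: the Abca1 by injury interaction in APOE3 mice was -0.27 on the log2 scale (adjusted p = 1.00) and the Abca1 by isoform interaction after injury 0.52 (adjusted p = 0.601, edgeR).

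**Figure D1:**
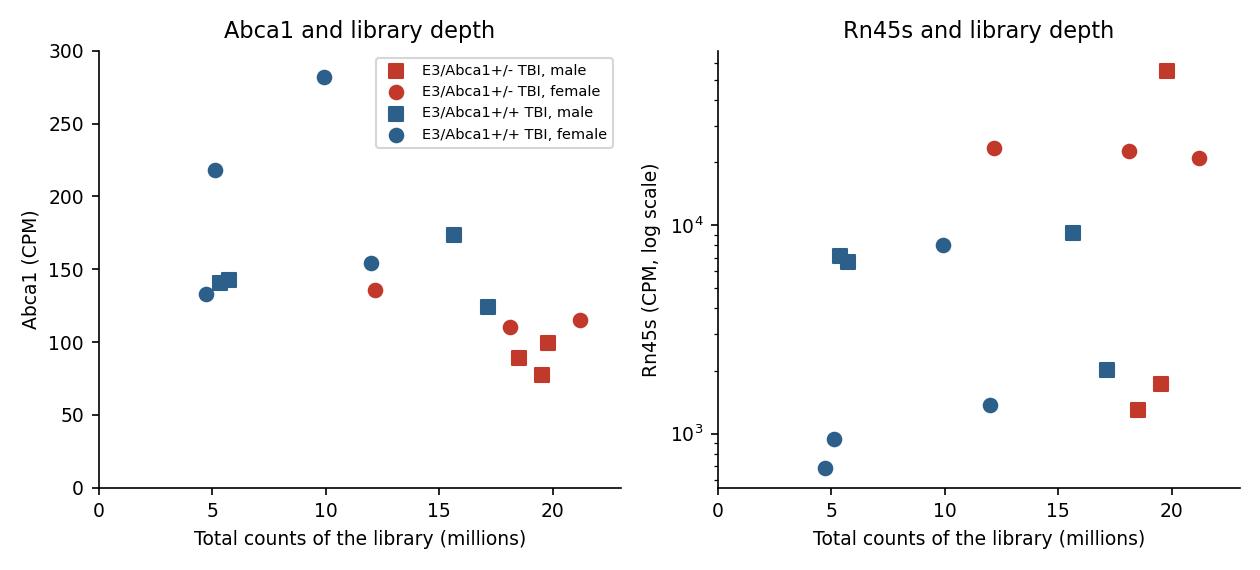
Abca1 in CPM (left, linear axis from 0) and Rn45s in CPM (right, log axis) against the total counts of each library, with 1 point per injured APOE3 mouse, red for E3/Abca1+/- and blue for E3/Abca1+/+, squares for males and circles for females. The red points lie below most blue points for Abca1 (77.4 to 136 against 124 to 282 CPM) and to the right of 6 of the 8 blue points in depth, and 4 red points stand above all blue points for Rn45s.

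Of 14966 genes tested, 13 were higher (0.0869%) and 14 lower (0.0935%) in E3/Abca1+/- than in E3/Abca1+/+ TBI mice at an adjusted p under 0.05 (edgeR). At an unadjusted p under 0.05 the counts were 715 higher (4.78%) and 643 lower (4.30%). Changes were small, and 12 of the 13 higher genes rose by 0.61 or less on the log2 scale. Against the 3 deeper E3/Abca1+/+ libraries alone, 3 genes were higher and 1 lower. All 27 genes kept their direction there, and Atp5j2, Cox8a and Nucks1 kept their call. Without the 4 E3/Abca1+/- libraries of high Rn45s, 1 gene was higher and 0 lower, with 27 of the 27 directions kept. Leaving out 1 mouse at a time gave 3 (without E3/Abca1+/- replicate 5) to 22 (without E3/Abca1+/+ replicate 8) higher and 2 (without E3/Abca1+/- replicate 3) to 20 (without E3/Abca1+/+ replicate 8) lower genes.

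The higher genes were led by parts of the respiratory chain. Atp5j2, the f subunit of the mitochondrial ATP synthase, had 34.0, 39.7 and 47.0 CPM as lowest, median and highest value with 2 copies of Abca1. It had 82.3, 92.3 and 97.8 CPM with 1 copy. Every E3/Abca1+/- mouse was above every E3/Abca1+/+ mouse, and the difference of 1.21 ± 0.06 (log2, standard error, adjusted p = 9.22e-09 in edgeR) gave Atp5j2 the smallest p. Cox8a, a subunit of cytochrome c oxidase, had 143, 156 and 180 CPM with 2 copies and 201, 227 and 235 CPM with 1 copy. Its groups did not overlap either, at 0.51 ± 0.06 on the log2 scale (adjusted p = 0.000255). Atp5d, the delta subunit of the ATP synthase, had 24.5, 34.1 and 39.4 CPM against 43.3, 47.8 and 55.0 CPM, a rise of 0.51 on the log2 scale (standard error 0.08, adjusted p = 0.0173). Mrps26, a protein of the small mitochondrial ribosomal subunit, rose by 0.27 ± 0.05 (adjusted p = 0.0452 in edgeR).

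The other higher genes were of mixed kinds. Rprml, a relative of the cell cycle inhibitor Reprimo, had 18.6, 25.5 and 27.7 CPM with 2 copies and 30.5, 36.9 and 41.7 CPM with 1 copy, again without overlap (log2 fold change 0.61, standard error 0.09, adjusted p = 0.00905, edgeR). Nfkbib, which encodes the NF-κB inhibitor IκBβ, ran from 12.4 to 15.7 CPM with 2 copies and from 16.9 to 19.7 CPM with 1 copy (log2 fold change 0.35). Stub1, a ubiquitin ligase that works with heat shock chaperones, rose by 0.31, Irf2bp1, a transcriptional corepressor, by 0.29, Bmyc, a relative of Myc, by 0.43 and Ccdc85b by 0.38, each with an adjusted p between 0.0413 and 0.0452 (edgeR). Grcc10 rose by 0.25. Gm16089 (log2 fold change 0.55, adjusted p = 0.0123) and Gm8203 (0.29, adjusted p = 0.0452) are predicted genes. Whether their reads are shared with similar sequences elsewhere in the genome was not tested.

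Among the 14 lower genes, Nucks1, a chromatin protein phosphorylated by casein and cyclin-dependent kinases, had the smallest p. It had 193, 212 and 243 CPM with 2 copies and 150, 154 and 159 CPM with 1 copy. The groups did not overlap (log2 fold change -0.48, standard error 0.05, adjusted p = 0.000255, edgeR). Mcc, named for its mutation in colorectal cancer, had 18.9, 24.0 and 28.4 CPM against 12.2, 14.5 and 16.2 CPM, or -0.73 ± 0.10 on the log2 scale (adjusted p = 0.00654). Mbnl1, a splicing regulator, fell by 0.27 (standard error 0.04, adjusted p = 0.0109) and Tmed5, a cargo protein of the early secretory pathway, by 0.28 (standard error 0.05, adjusted p = 0.0176). Cbx3, the heterochromatin protein HP1γ, ran from 11.7 to 16.7 CPM with 2 copies and from 9.59 to 11.1 CPM with 1 copy (log2 fold change -0.52, adjusted p = 0.0254, edgeR).

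Cd47, the surface signal that keeps phagocytes from engulfing a cell, was among the lower genes. It had 52.7, 64.1 and 70.6 CPM with 2 copies and 48.4, 50.1 and 51.7 CPM with 1 copy, without overlap but with the lowest E3/Abca1+/+ mouse close to the highest E3/Abca1+/- mouse (log2 fold change -0.33, standard error 0.06, adjusted p = 0.0413, edgeR). Lgr4, a receptor for R-spondins, fell by 0.31, Msi2, an RNA-binding regulator of translation, by 0.34, Sppl2a, an intramembrane protease of endosomes, by 0.23, and the zinc finger genes Zbtb44 and Zkscan1 by 0.46 and 0.21. Lrrc58 fell by 0.30 and the long non-coding RNA Kantr by 0.38. Tnfrsf8, the receptor CD30, had the largest difference by size, -1.25 ± 0.23 on the log2 scale (adjusted p = 0.0425 in edgeR), at 0.328 to 0.595 CPM with 1 copy and 0.753 to 1.43 CPM with 2 copies, levels that correspond to few counts per library. The groups did not overlap for 12 of the 13 higher and 13 of the 14 lower genes. Over all genes tested, 0.247% lay without overlap above and 0.261% below. The called genes were picked by p from the same mice, so their lack of overlap is not separate support.

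**Figure D2:**
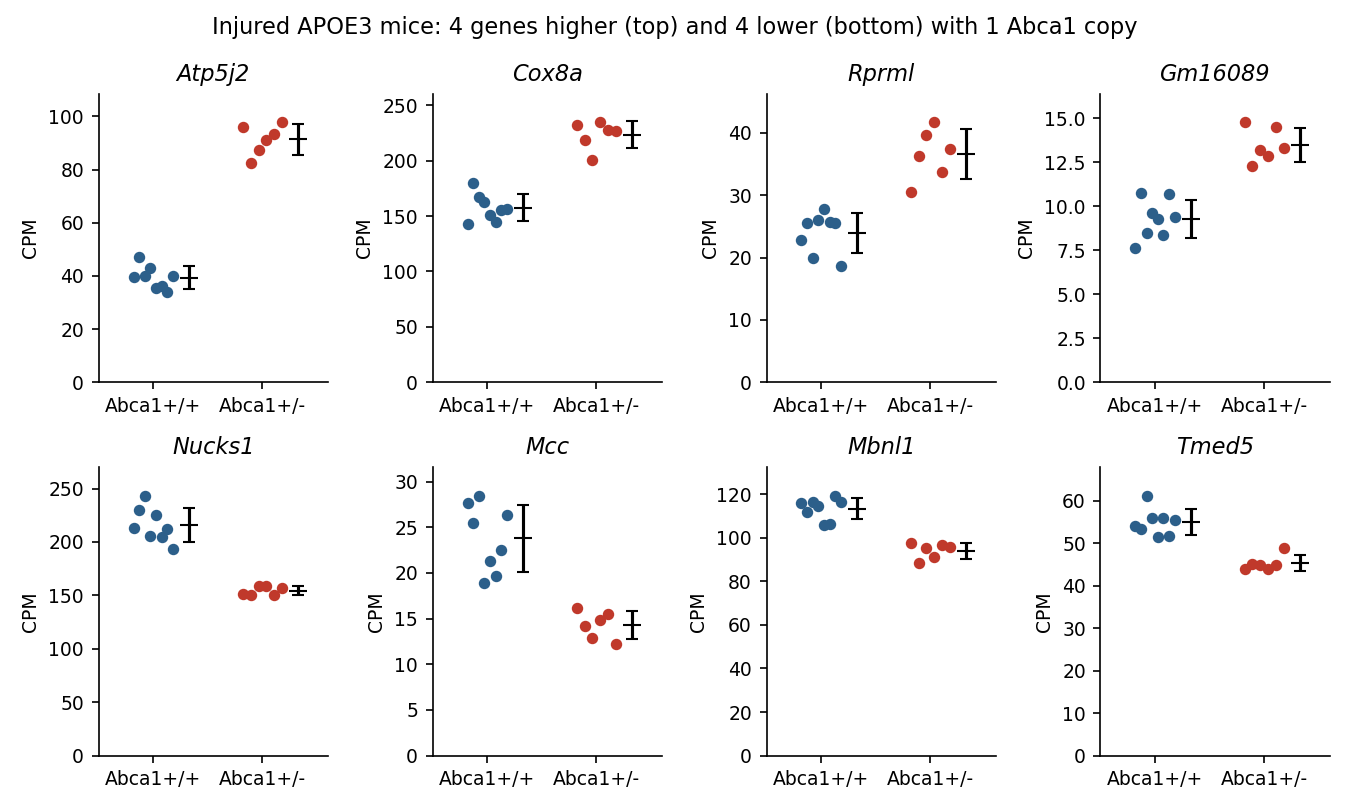
CPM in each injured APOE3 mouse (blue, E3/Abca1+/+, n = 8; red, E3/Abca1+/-, n = 6) of the 4 genes with the smallest p among those higher and the 4 among those lower with 1 Abca1 copy; black bars are the mean ± SD and each axis starts at 0. No red point overlaps the blue points in any of the 8 panels, and Atp5j2 shows the widest gap (34.0 to 47.0 against 82.3 to 97.8 CPM).

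The higher and lower genes differed in the make-up of their transcripts. The coding sequences of the 3 genes with the smallest p in each direction are shown as examples, Mcc being left out. By p, Mcc stood between Nucks1 and Mbnl1 among the lower genes. Its transcript held 48.7% G and C, against 39.7% for Mbnl1 and 35.0% for Tmed5, so the lower genes shown are poorer in GC than Mcc. Each line holds the first 180 coding bases of the longest basic GENCODE transcript on GRCm38, 5′ to 3′, with G and C in capitals. In order, the genes lie at chr5:145183704-145191541 (Atp5j2, minus strand), chr19:7215158-7217616 (Cox8a, minus), chr11:103649509-103650580 (Rprml, plus), chr1:131910458-131936321 (Nucks1, plus), chr3:60472559-60629750 (Mbnl1, plus) and chr5:108121556-108132620 (Tmed5, minus).
Atp5j2: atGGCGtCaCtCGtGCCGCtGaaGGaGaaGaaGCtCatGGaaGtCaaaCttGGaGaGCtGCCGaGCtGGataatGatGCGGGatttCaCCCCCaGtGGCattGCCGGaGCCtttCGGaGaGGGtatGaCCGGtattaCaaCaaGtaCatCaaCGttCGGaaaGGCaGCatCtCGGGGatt
Cox8a: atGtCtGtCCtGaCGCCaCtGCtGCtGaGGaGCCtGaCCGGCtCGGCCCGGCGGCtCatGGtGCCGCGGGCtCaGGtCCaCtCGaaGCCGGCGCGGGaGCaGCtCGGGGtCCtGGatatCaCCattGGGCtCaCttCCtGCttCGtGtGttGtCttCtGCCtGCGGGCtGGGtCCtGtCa
Rprml: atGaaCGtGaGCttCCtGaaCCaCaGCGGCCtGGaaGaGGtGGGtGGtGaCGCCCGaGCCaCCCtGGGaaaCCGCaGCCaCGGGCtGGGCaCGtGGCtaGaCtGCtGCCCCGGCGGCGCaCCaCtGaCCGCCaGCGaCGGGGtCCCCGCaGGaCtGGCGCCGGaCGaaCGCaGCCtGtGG
Nucks1: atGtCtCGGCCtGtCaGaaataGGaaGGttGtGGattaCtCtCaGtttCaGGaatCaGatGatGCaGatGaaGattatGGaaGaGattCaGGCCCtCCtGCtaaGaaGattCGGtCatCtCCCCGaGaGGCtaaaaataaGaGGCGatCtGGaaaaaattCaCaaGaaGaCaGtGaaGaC
Mbnl1: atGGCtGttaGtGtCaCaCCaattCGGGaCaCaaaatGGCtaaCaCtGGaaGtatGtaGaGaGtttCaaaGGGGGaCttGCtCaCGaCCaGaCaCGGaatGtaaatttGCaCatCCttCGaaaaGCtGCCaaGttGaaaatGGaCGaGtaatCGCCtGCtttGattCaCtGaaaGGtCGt
Tmed5: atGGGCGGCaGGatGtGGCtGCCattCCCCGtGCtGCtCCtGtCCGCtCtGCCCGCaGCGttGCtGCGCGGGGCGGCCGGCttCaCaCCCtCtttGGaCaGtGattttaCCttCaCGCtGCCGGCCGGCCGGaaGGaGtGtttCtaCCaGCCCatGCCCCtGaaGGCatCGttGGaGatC
G and C made up 52.4%, 64.8% and 65.5% of the whole coding sequence of Atp5j2, Cox8a and Rprml, and 45.0%, 50.8% and 44.8% of that of Nucks1, Mbnl1 and Tmed5. The median over coding sequences was 64.0% for 11 higher genes, 48.1% for 13 lower genes and 53.2% for all genes tested that had one. Atp5j2 lay just below the median of all genes, as it did over its whole transcript (50.1%). Tmed5 shows that the first bases need not stand for the whole, with 116 G or C of the 180 shown. Over whole transcripts the median GC content was 58.5% for the 11 higher genes with a transcript, 42.2% for 13 lower genes and 50.3% for the 14156 genes tested that had one. The median transcript length was 1410 bases for higher, 5655 bases for lower and 3249 bases for all genes.

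The same slope ran through the genes that were not called. From the decile of genes with the least to the decile with the most GC, the median log2 fold change between E3/Abca1+/- and E3/Abca1+/+ TBI mice went from -0.08 to 0.08, and 10 of the 13 lower genes with a transcript fell in the 2 lowest deciles. Across genes Spearman's rho of the log2 fold change with GC content was 0.36 in injured APOE3, 0.48 in sham APOE3, -0.04 in injured APOE4 and 0.02 in sham APOE4 mice. With transcript length it was -0.25, -0.34, -0.45 and -0.29. These values are across 14156, 13802, 14090 and 13947 genes in the same order, and genes measured in the same libraries are not independent replicates. With each library's trend on GC content and length taken out, 3 genes were higher and 3 lower, among them Atp5j2 (log2 fold change 1.15), Cox8a (0.36), Nucks1 (-0.38) and Mcc (-0.70). The part of transcript composition in the other calls was not tested beyond this.

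**Figure D3:**
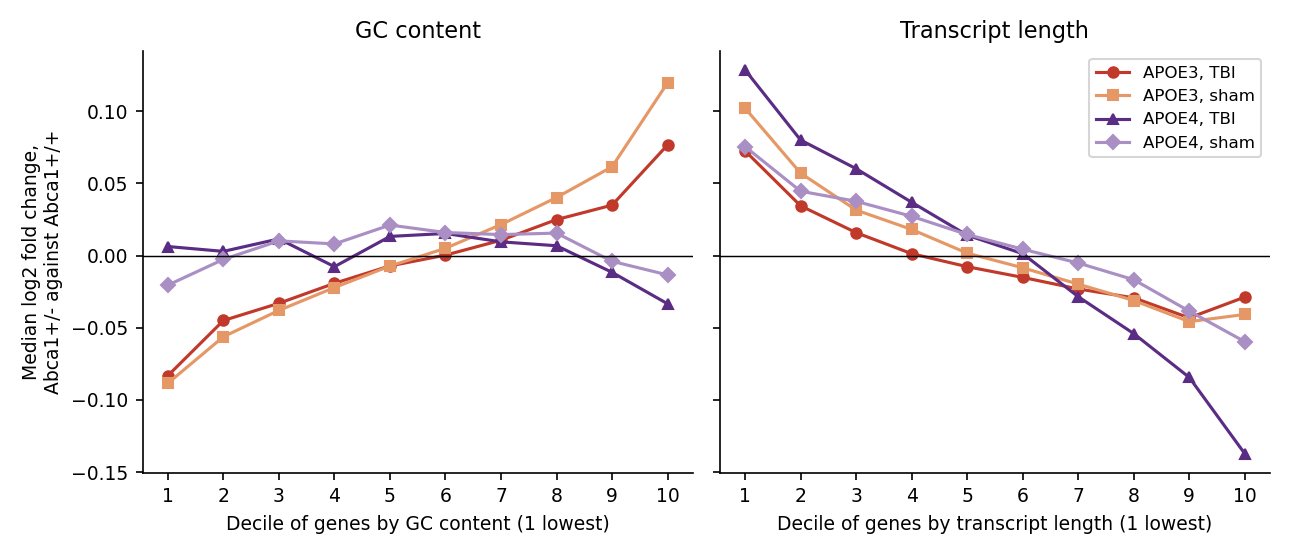
Median log2 fold change of Abca1+/- against Abca1+/+ mice in each decile of genes by GC content (left) and by transcript length (right, short to long), for the 4 sets of mice. In injured APOE3 mice (red circles) it climbs from -0.08 to 0.08 with GC content, a slope seen in sham APOE3 but not in the APOE4 sets, while with length all 4 sets go from above 0 in the shortest to below 0 in the longest genes.

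The genes called in injured APOE3 mice were then read in the other 3 sets, in which 50.4%, 50.6% and 51.2% of all genes tested lay above 0 and 49.6%, 49.4% and 48.8% under 0 (sham APOE3, injured APOE4 and sham APOE4 mice). In sham APOE3 mice, where 237 genes were higher (1.63%) and 129 lower (0.886%), 13 of the 13 higher genes had the same direction and 12 were called, and 13 of the 14 lower genes had the same direction and 10 were called. Tnfrsf8 was the exception in direction, with 0.20 in sham APOE3 mice. In injured APOE4 mice, with 83 genes higher (0.559%) and 135 lower (0.909%), 7 of the 13 higher genes had the same direction and 2 were called, against 13 and 4 of the 14 lower genes. In sham APOE4 mice, with 55 higher (0.373%) and 91 lower (0.617%), 13 of the 13 higher genes had the same direction and 2 were called, against 13 and 9 of the 14 lower genes. Depth also differed there: Abca1+/- and Abca1+/+ libraries held 13059250 to 28184924 and 4421308 to 15941530 counts in sham APOE3 mice, 18311106 to 28467098 and 4695676 to 14064531 in sham APOE4 mice, and 5471936 to 37877346 and 5192820 to 14939612 in injured APOE4 mice. Its part in the shared calls was not tested.

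Atp5j2 and Gm16089 were called higher, and Nucks1, Lrrc58, Cbx3 and Cd47 lower, in all 4 sets. For Atp5j2 the log2 fold change was 1.20 in sham APOE3 (90.0 ± 3.63 against 39.3 ± 4.19 CPM), 1.13 in injured APOE4 (80.6 ± 7.22 against 37.0 ± 6.57 CPM) and 1.13 in sham APOE4 mice (77.3 ± 3.64 against 35.5 ± 4.75 CPM). The ranges of the 2 genotypes did not overlap in any set. Cox8a had 0.65 in sham APOE3, 0.17 in injured APOE4 and 0.42 in sham APOE4 mice, and passed the threshold in the sham APOE3 set (adjusted p = 0.000109, edgeR). Atp5d, Bmyc, Ccdc85b, Nfkbib and Stub1 had values of 0.28 to 0.51 in sham APOE3 and between -0.10 and -0.03 in injured APOE4 mice.

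The differences between sets were also tested themselves. The Abca1 by injury interaction in 29 APOE3 mice passed the threshold for 0 of 15098 genes in edgeR, with 320 genes (2.12%) at an unadjusted p under 0.05, and for 0 genes with DESeq2's Wald test. The Abca1 by isoform interaction in 29 injured mice passed for 1 of 15138 genes in edgeR (0.00661%) and for 6 higher and 61 lower genes with DESeq2's Wald test, and 1536 genes (10.1%) had an unadjusted p under 0.05.

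**Figure D4:**
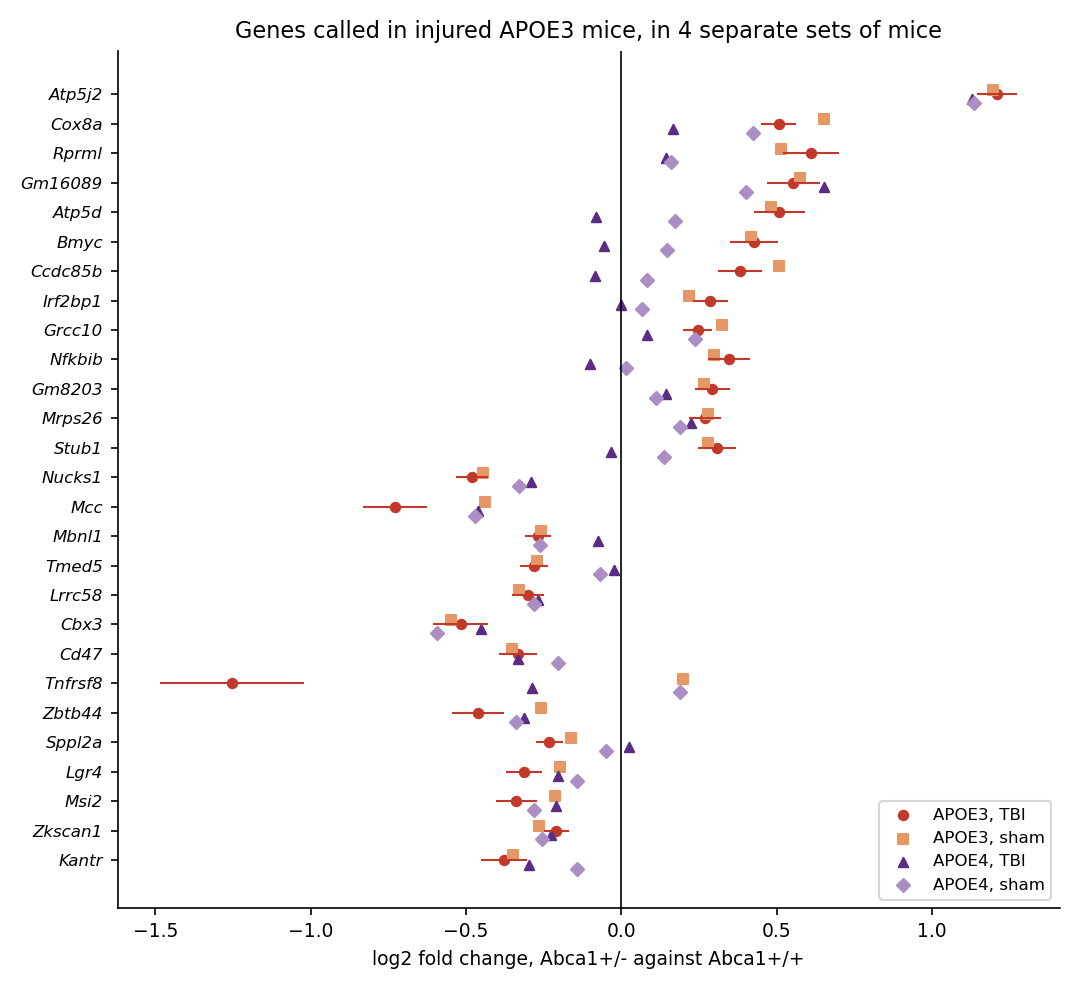
Log2 fold change of Abca1+/- against Abca1+/+ mice for the 13 higher and 14 lower genes of injured APOE3 mice (red circles, bars are the standard error) beside the same genes in sham APOE3 (orange squares), injured APOE4 (dark triangles) and sham APOE4 mice (light diamonds). Atp5j2 lies between 1.13 and 1.21 in all 4 sets, sham APOE3 values follow the red circles for most genes, and the dark triangles of several higher genes lie at or below 0.

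The genes around ABCA1 in cholesterol transport did not pass the test. Of 24 cholesterol efflux and LXR target genes, Abca1 among them, 0 were called. At an unadjusted p under 0.05, 1 was higher and 1 lower (edgeR), and the lower one was Abca1 itself. Of the 24 genes, 15 had a log2 fold change above 0 against 47.5% of all genes. The median of the list was 0.02 beside -0.01 for all genes. The transporters Abcg1 (log2 fold change -0.12, adjusted p = 0.632), Abcg4 (0.01), Abca2 (0.05) and Abca7 (-0.10) had small values. The receptor gene Nr1h2 had 0.18 (adjusted p = 0.422) and Nr1h3 0.34 (adjusted p = 0.639), at 31.8 and 3.13 CPM on average with 2 copies of Abca1. Srebf1, Mylip, Lrp1 and Lpl lay between -0.10 and 0.03. The mouse Apoe row had 23.2 ± 3.45 CPM with 2 copies and 24.8 ± 1.73 CPM with 1 copy (log2 fold change 0.08, adjusted p = 0.875, edgeR). Where the reads of this row come from in mice whose Apoe was replaced was not tested. Of 24 sterol synthesis genes 0 were called, with a median of 0.02, or -0.09 against the deeper E3/Abca1+/+ libraries. Ebp, a sterol isomerase, had the smallest p of them (log2 fold change 0.25, adjusted p = 0.203).

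Nuclear genes of oxidative phosphorylation held 3 of the 13 higher genes, Atp5j2, Cox8a and Atp5d, and none of the lower ones. These were 3 of 81 genes, where 0.0869% of all genes tested were called higher. Of the 81 genes, 71 had a log2 fold change above 0, 29 had it with an unadjusted p under 0.05 (4.78% of all genes did) and 2 had a negative one with such a p. Their median was 0.10, against -0.01 for all genes, and 0.04 with the trends on GC content and length taken out. Ndufb2 of complex I had 28.6 to 35.5 CPM with 2 copies and 36.6 to 43.5 CPM with 1 copy, and missed the threshold (log2 fold change 0.27, adjusted p = 0.0719, edgeR). Sham APOE3 mice gave a median of 0.11 with 19 of the 81 genes called higher, injured APOE4 mice 0.09 with 2 called and sham APOE4 mice 0.08 with 4 called. Of all genes tested, 1.63%, 0.559% and 0.373% were called higher in these sets, in the same order.

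The 13 genes of the mitochondrial genome pointed the other way, with 13 of 13 below 0 (52.5% of all genes) and a median of -0.30. At the adjusted threshold 0 were called. At an unadjusted p under 0.05, 9 were lower and 0 higher (edgeR, against 4.30% and 4.78% of all genes). ND6, a complex I subunit encoded on the light strand, had 1009, 1158 and 1374 CPM with 2 copies and 735, 862 and 1088 CPM with 1 copy (log2 fold change -0.42, adjusted p = 0.0841). The median of the list was -0.04 in males alone and -0.52 in females alone, and -0.07 without the 4 E3/Abca1+/- libraries of high Rn45s, which included all 3 females. The summed mitochondrial share ran from 2.22% to 3.19% of counts with 1 copy and from 2.67% to 3.34% with 2 copies. Sex and Rn45s moved together in these libraries, and their part in this result was not tested. In the other sets the median was -0.21 (1 of 13 called lower) in sham APOE3, -0.37 (6 called) in injured APOE4 and -0.55 (11 called) in sham APOE4 mice. Of all genes tested, 0.886%, 0.909% and 0.617% were called lower there, in the same order.

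Of 82 genes of cytosolic ribosomal proteins 0 were called (13 higher and 4 lower at an unadjusted p under 0.05, edgeR, against 4.78% and 4.30% of all genes), with a median of 0.05. Rps21 was nearest to the threshold, at 64.3 to 86.4 CPM with 2 copies and 84.3 to 100.5 CPM with 1 copy (log2 fold change 0.31, adjusted p = 0.0563). Reads of ribosomal protein genes can be shared with their many processed copies, so single values are uncertain.

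Microglial genes were not called in either list. All 13 homeostatic microglia genes were tested and 0 were called (1 higher and 1 lower at an unadjusted p under 0.05, edgeR). Of these 11 were below 0 (52.5% of all genes), with a median of -0.07. P2ry12, a purinergic receptor of surveying microglia, had 52.9 CPM with 2 copies and 48.3 CPM with 1 copy on average (log2 fold change -0.14, adjusted p = 0.534). Of 18 genes of disease-associated microglia 0 were called in either direction and 0 had an unadjusted p under 0.05, with a median of -0.01, which was 0.07 against the deeper E3/Abca1+/+ libraries and -0.29 without the E3/Abca1+/- libraries of high Rn45s. Trem2 had 0.06, Tyrobp 0.02, Clec7a 0.03, Gpnmb -0.13 and Itgax 0.43 (adjusted p = 0.606, edgeR). Their summed level ran from 2205 to 4655 CPM with 2 copies and from 2408 to 4213 CPM with 1 copy, so that mice of 1 group differed from each other more than the groups did. In injured APOE4 mice the same list had 18 of 18 genes above 0 and a median of 0.68, with 0 called.

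Inflammatory and reactive astrocyte genes did not pass the test. Of 12 complement genes 7 were below 0 (52.5% of all genes) and the median was -0.10, with C1q genes at 0.01 to 0.06 and C3 at -0.30. Of 14 interferon-stimulated genes 13 were below 0 (52.5% of all genes), with a median of -0.21, and Irf7 had the smallest p (log2 fold change -0.36, adjusted p = 0.713). Of 15 reactive astrocyte genes 11 were below 0 (52.5% of all genes), with a median of -0.15, while Gfap had 0.00, Serpina3n 0.02 and Timp1 -0.37. In these 3 lists 0 genes were called and 0 had an unadjusted p under 0.05 (edgeR). The medians moved with the libraries used: against the deeper E3/Abca1+/+ libraries they were 0.09, -0.08 and 0.08 for complement, interferon and reactive astrocyte genes, and without the E3/Abca1+/- libraries of high Rn45s -0.40, -0.50 and -0.52. Among 11 homeostatic astrocyte genes, Slc1a2, the main glutamate transporter, had 3940, 4638 and 5435 CPM with 2 copies and 3547, 3758 and 4160 CPM with 1 copy, with overlap in 1 E3/Abca1+/- mouse (log2 fold change -0.28, adjusted p = 0.0742). It was called in sham APOE3 mice, with -0.21 (adjusted p = 0.0173, edgeR).

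Oligodendrocyte genes lay on the higher side without a call. All 14 were above 0 (47.5% of all genes), 7 of them with an unadjusted p under 0.05 (4.78% of all genes), and the median was 0.19, or 0.36 without the 4 E3/Abca1+/- libraries of high Rn45s. Olig1, a transcription factor of the lineage, had 60.8, 69.2 and 81.7 CPM with 2 copies and 76.7, 88.3 and 95.4 CPM with 1 copy (log2 fold change 0.30, adjusted p = 0.0663, edgeR). The myelin genes Mobp (0.26), Mag (0.27), Mog (0.25) and Mbp (0.21) had adjusted p-values of 0.308 to 0.397. The summed level of the list was 2874 to 3882 CPM with 2 copies and 3218 to 4725 CPM with 1 copy. In bulk tissue a change in the number of cells and a change in RNA per cell cannot be told apart. The medians in the other sets were 0.00 in sham APOE3, 0.09 in injured APOE4 and -0.14 in sham APOE4 mice.

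Neuronal and regional marker genes held no call. All 11 interneuron genes were above 0 (47.5% of all genes; median 0.09), with Slc32a1, the vesicular GABA transporter, at 0.21 (adjusted p = 0.313) and Sst at 0.20. Of 11 hippocampal marker genes 10 were above 0 (median 0.28, and 0.13 against the deeper E3/Abca1+/+ libraries), and of 11 cortical layer genes 9 were below 0 (52.5% of all genes; median -0.05, and 0.01 against the deeper libraries), with Rorb at -0.37 (adjusted p = 0.458, edgeR). The dentate gene Dsp had 32.6 CPM in 1 E3/Abca1+/- mouse and 9.60 to 17.0 CPM in the other 5. The summed hippocampal level was 407 to 457 CPM with 2 copies and 394 to 578 CPM with 1 copy, and the cortical level 514 to 731 and 522 to 701 CPM, so that the groups overlapped for both. Excitatory neuron genes (median 0.01), synaptic genes (-0.03) and immediate early genes (0.02, and -0.13 against the deeper libraries) lay near all genes. No gene of these 6 lists was called.

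Smaller lists held 0 calls too. The medians were 0.11 for 16 genes of endoplasmic reticulum chaperones and the unfolded protein response, 0.18 for 9 heat shock genes, -0.08 for 12 endothelial, 0.02 for 8 thalamic, -0.08 for 8 striatal and -0.08 for 8 fibroblast and meningeal genes. Of blood cell markers 5 of 9 and of lymphocyte markers 1 of 8 could be tested, with summed levels of at most 23.6 and 3.25 CPM in any library. Against the deeper E3/Abca1+/+ libraries the medians were 0.17 for chaperone, 0.09 for heat shock, 0.12 for thalamic, 0.04 for striatal and 0.43 for fibroblast and meningeal genes. The 6 choroid plexus genes tested had a median of 0.49 that rested on single mice, and that was -0.83 without the E3/Abca1+/- libraries of high Rn45s, where the 5 blood cell genes went from 0.30 to -1.50. Ttr, made by choroid plexus, had 1763 CPM in 1 E3/Abca1+/- mouse and 1250 CPM in 1 E3/Abca1+/+ mouse, and at most 21.7 CPM in the others.

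Genes beside Abca1 on chromosome 4 showed no call after injury in APOE3 mice. Of 115 genes within 10 Mb, 58 were above 0 and 0 were called, with a median of 0.00 (14 higher and 8 lower at an unadjusted p under 0.05, edgeR, against 4.78% and 4.30% of all genes). Anp32b, which begins 6.58 Mb before Abca1, had the smallest p among them, with log2 fold changes of 0.30, 0.23, 0.45 and 0.33 in injured APOE3, sham APOE3, injured APOE4 and sham APOE4 mice and adjusted p-values of 0.0932, 0.0838, 0.0141 and 0.0164 (edgeR). Alad, a heme synthesis enzyme 9.48 Mb behind Abca1, had 0.86, 0.05, 1.38 and 0.97 in the same order, and passed the threshold in injured APOE4 mice. Hdhd3, 9.47 Mb behind Abca1, had 0.87, 0.12, 1.39 and 1.20 and passed in the same set. Of the genes within 10 Mb, 3 were called higher and 2 lower in injured APOE4 mice, against 0.559% and 0.909% of all genes. Anp32b, Alad and Hdhd3 were singled out after their values were seen.

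**Figure D5:**
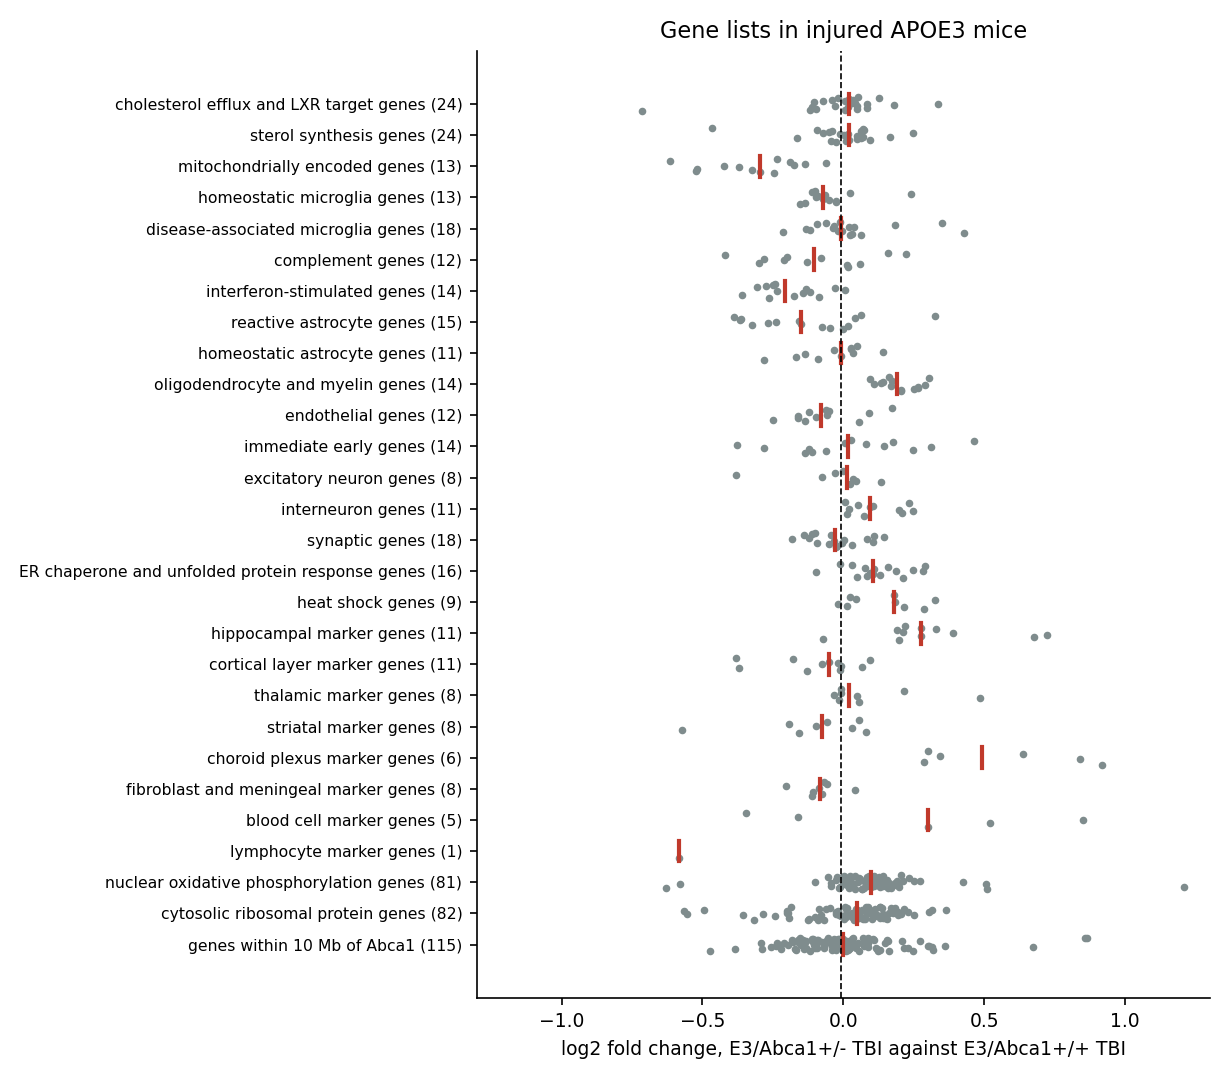
Log2 fold change of E3/Abca1+/- against E3/Abca1+/+ TBI mice for each tested member of the gene lists (grey points, number in brackets) with the list's median (red bar); the dashed line is the median of all genes, and 2 members beyond 1.3 in size are not drawn. The medians stand farthest from the line for choroid plexus (0.49), mitochondrially encoded (-0.30), blood cell (0.30), hippocampal (0.28), interferon-stimulated (-0.21) and oligodendrocyte genes (0.19), apart from the lymphocyte list, of which 1 gene was tested.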

How the data were processed

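Bulk RNA-seq of hippocampus and cortex at the injury site was taken from 58 mice, of which 14 are described. The deposited values are whole-number read counts per gene, which the authors made with Subread 1.5.0 and featureCounts (submitters' processing notes) on mouse build mm10. The 23 gene symbols that had become dates were renamed, 2 blank lines were removed, and 14999 of 15171 genes (98.9%) matched the RefSeq gene table. Groups came from the labels. Nothing in them ties animals to a litter or day, and p-values measure the spread between mice. Within each sex, every E3/Abca1+/+ TBI mouse had a lower running number in its label than every E3/Abca1+/- TBI mouse. The labels do not say what these numbers stand for. Their order and Abca1 copies cannot be told apart by the design.

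Counts were filtered with filterByExpr, scaled by TMM and tested with edgeR 4.0.16 (quasi-likelihood, R 4.3.3), each comparison on its own groups and each interaction on its 4 groups. Adjusted p-values are Benjamini-Hochberg over all genes tested, with a threshold of 0.05. DESeq2 1.42.0, limma 3.58.1 and 18 alternatives in all, 4 of them chosen after seeing the data, were run beside 14 fits that left out 1 mouse. The sham APOE4 comparison was also added then. Depth was tested with an exact permutation test (scipy 1.17.1). GC content and length are of the longest basic GENCODE transcript (14320 genes). The tests were tested on simulated data. The members and gene lists were chosen with earlier results of these data known. Named were Abca1 and Apoe, up to 15 called genes per direction, the called or 2 leading members of each list, and called interactions. Other genes were chosen by their role or after their values were seen, and a few genes that the rule names are not reported here.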

Additional observations from a re-analysis of the deposited data

Results flagged for a closer look

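Of 162 groups of values for named genes and depth, 21 had a highest or lowest mouse set apart from the others of its group by Dixon's criterion, which chance meets in about 1 in 20 groups. Among called genes these were Atp5d in E3/Abca1+/+ replicate 3 (24.5 CPM, the others 33.5 to 39.4), Mrps26 in E3/Abca1+/- replicate 4 (39.6 CPM) and E3/Abca1+/+ replicate 1 (26.3 CPM), Tmed5 in E3/Abca1+/- replicate 6 (49.0 CPM) and E3/Abca1+/+ replicate 3 (61.2 CPM), Zbtb44 in E3/Abca1+/+ replicate 3 (49.5 CPM) and Lgr4 in E3/Abca1+/- replicate 2 (28.8 CPM).

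Cell type and region markers set apart in E3/Abca1+/- mice were Kcnj10, a glial potassium channel (345 CPM in replicate 5), Grin1 (275 CPM) and Dsp (32.6 CPM) in replicate 2, and the thalamic gene Slc17a6 (73.7 CPM in replicate 5). In E3/Abca1+/+ mice they were Cdh5, an endothelial cadherin (25.8 CPM), and Slc6a13 (29.4 CPM) in replicate 8 and Slc32a1 (68.6 CPM) in replicate 7. The choroid plexus genes Sostdc1 (11.5 and 7.83 CPM) and Clic6 (37.2 and 29.8 CPM) were set apart in E3/Abca1+/- replicate 3 and E3/Abca1+/+ replicate 7, the mice with high Ttr. The neutrophil genes S100a9 (9.90 CPM) and S100a8 (8.05 CPM) were set apart in E3/Abca1+/- replicate 6. E3/Abca1+/- replicate 4 had the lowest depth of its group, 12165681 counts.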

How the results depend on the processing

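All 27 called genes kept their direction in each of the 18 alternatives and 14 leave-one-out fits in which they could be tested. Their number did not hold. Higher and lower counts were 88 and 74 in DESeq2 (Wald), 40 and 34 by the exact test of edgeR, 39 and 38 with limma voom, 21 and 42 in a single fit over all 8 groups, 5 and 3 with libraries thinned to the lowest total, 3 and 3 with GC content and length offsets, and 3 and 1 against E3/Abca1+/+ libraries of at least 11981479 counts (replicates 1, 4 and 6). With sex as a covariate 24 genes were lower. Higher and lower counts were 2 and 0 with log2 total count as a covariate (410 and 386 at an unadjusted p under 0.05, edgeR), 2 and 0 in males (520 and 554), 2 and 0 in females (536 and 521), and 1 and 0 without the E3/Abca1+/- libraries over 20000 CPM of Rn45s (355 and 361). These alternatives have fewer mice or a covariate that moves with Abca1 copies, and the cause of their low counts was not tested. Leaving out 1 mouse gave 3 to 22 higher and 2 to 20 lower genes.

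Abca1 passed the threshold at -0.71 with DESeq2, -0.71 with edgeR's exact test and -0.71 with sex as a covariate, and in none of the other alternatives. It ran from -0.80 to -0.57 when 1 mouse was left out (adjusted p = 0.0850 to 0.239, edgeR). In sham APOE3 mice the counts were 400 and 326 with DESeq2, 101 and 58 thinned, and 30 and 26 with the offsets, with 136 higher in the fit over 8 groups and 195 lower with sex. For the isoform interaction DESeq2 gave 6 and 61 genes, and the fit over 8 groups 0 (1211 and 807 unadjusted).

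Genes that changed sign had no adjusted p under 0.05 there, and the cause was not tested. With log2 total count the values were -0.0161 for Apoe, 0.00157 for Tbr1 and 0.22 for Lum, and with the offsets -0.0151 for Apoe. With voom they were 0.0643 for Slc6a13 and 0.17 for Lum. In males they were -0.18 for Lyz2, -0.18 for Slc17a6, 0.0283 for Slc6a13, 0.30 for Lum, -1.09 for S100a9 and -1.26 for S100a8, and in females 0.0193 for Tbr1, -0.81 for Sostdc1 and -2.76 for Clic6. Without the libraries of high Rn45s they were -0.78 for Lyz2, 0.0702 for Tbr1, -0.42 for Tnnt1, -0.53 for Sostdc1, -2.93 for Clic6, -1.66 for S100a9 and -1.50 for S100a8. Against the deeper libraries they were 0.0122 for Tbr1, 0.20 for Slc6a13 and 0.41 for Lum. Leaving out 1 mouse gave -0.16 to 0.32 for Slc17a6, -0.41 to 1.12 for Sostdc1, -2.15 to 2.73 for Clic6, -0.30 to 0.0501 for Slc6a13, -0.24 to 0.10 for Lum, -0.12 to 1.24 for S100a9 and -0.64 to 0.75 for S100a8.

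No paired analysis was possible because the labels give each mouse its own number and tie no mouse of 1 group to a mouse of the other. The replicate numbers used here only count the mice within a group. Depth limits low genes most, since 3 counts were worth 0.636 CPM in the shallowest E3/Abca1+/+ library, close to the levels of Tnfrsf8.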

Other observations

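Some genes without a call in injured APOE3 mice stood on the same side in all 4 sets of mice, and those named were chosen after their values were seen. Of 14422 genes tested in all 4 sets, 61 were higher and 108 lower in each at an unadjusted p under 0.05 (edgeR). These counts include genes called in injured APOE3 mice, such as Atp5j2 and Nucks1. Rps3, a ribosomal protein, had log2 fold changes of 0.14, 0.18, 0.28 and 0.17 in injured APOE3, sham APOE3, injured APOE4 and sham APOE4 mice, and passed the adjusted threshold in the last 3 (edgeR). Cox6b1, a subunit of cytochrome c oxidase, had 0.19, 0.19, 0.21 and 0.19. Genes of the same kinds were also lower in all 4 sets. Rps29, another ribosomal protein, had -2.04, -2.30, -2.45 and -2.47, with adjusted p-values of 0.281, 0.0444, 0.0622 and 0.0810 (edgeR). Its level in injured APOE3 mice was low, at 2.20 CPM on average with 1 copy and 9.92 CPM with 2 copies. ND2, a mitochondrially encoded complex I subunit, had -0.30, -0.29, -0.37 and -0.52, and ND1, ND4, ND5 and ND6 had the same sign. Gm9800, a predicted gene, had 0.56, 0.44, 0.71 and 0.48, with an adjusted p of 0.0581 in injured APOE3 mice (edgeR).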
